A study of Mus musculus with 9 samples.

Results

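The genes examined here are 9 genes of brain iron handling, chosen by symbol: Fth1, Ftl1, Tfrc, Trf, Slc40a1, Slc11a2, Cp, Ireb2 and Aco1. All 9 were found among the 26602 genes with a count, and all 9 had the 10 counts over 9 libraries that were required of the 18127 genes tested. They were measured in midbrain tissue containing the substantia nigra of 4 DJ-1+/+ mice (labelled WT) and 5 DJ-1-/- mice (labelled DJ-1 KO), 3 to 4 months old, with 1 library per mouse. The DJ-1-/- mice carried a germline targeted Park7 allele in every cell of the body on a C57BL/6 background, and both genotypes were littermates from heterozygous breeding. The libraries read a fragment near the 3′ end of each polyadenylated RNA and carried unique molecular identifiers (UMIs), so that 1 molecule gives 1 count whatever the length of its transcript. Levels are given as counts per 1000000 counts of the library (cpm), which is a share of the counted molecules. Levels can be set side by side between genes only where reads are not lost to copies or overlapping genes, which is in doubt for Ftl1 and Trf. It is also in doubt for Slc11a2 and Cp, which overlap genes on the other strand, since the strand setting is not given in the sources used here.

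Iron enters brain cells largely as iron bound to transferrin (Trf), which is taken up by the transferrin receptor (Tfrc). It then crosses the endosomal membrane through the divalent metal transporter DMT1 (Slc11a2), is stored in ferritin, a shell of heavy (Fth1) and light (Ftl1) chains, and leaves the cell through ferroportin (Slc40a1), aided by the ferroxidase ceruloplasmin (Cp). The iron regulatory proteins IRP1 (Aco1) and IRP2 (Ireb2) bind iron-responsive elements, short hairpins in the mRNAs of these genes, when iron is scarce. Binding in the 5′ untranslated region (UTR) blocks translation, and binding in the 3′ UTR of Tfrc protects the mRNA from decay. In brain, oligodendrocytes are rich in iron, transferrin and ferritin, and the substantia nigra is a region in which iron accumulates with age.

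The hairpins are shown first because their place separates Tfrc, where binding acts on the mRNA level that these libraries measure, from Fth1, Ftl1 and Slc40a1, where it acts on translation, which they do not. The coding transcripts of GENCODE M21 (GRCm38) were searched on the transcript strand for the loop CAGTGN. The loop had to follow a stem of 5 bases that pairs with the 5 bases after the loop (G paired with T allowed). A C was required directly before that stem, and whether this C was unpaired was not checked. Fth1, Ftl1 and Slc40a1 each held 1 match in the 5′ UTR, and Tfrc held 4 in the 3′ UTR. Among 21899 coding genes, 0.128% held a match in the 5′ UTR and 0.575% in the 3′ UTR. No match was found in Trf, Slc11a2, Cp, Ireb2 or Aco1, which says only that these letters in this arrangement are not in those transcripts. A hairpin of another form, such as one with a bulged base in the stem, would be missed. These genes are therefore not shown to lack an iron-responsive element. Each hairpin is printed 5′ to 3′ as 30 bases of the mRNA sense, with the loop in capitals, followed by its GRCm38 position.
Fth1, 5′ UTR, chr19:9982732-9982761, plus strand: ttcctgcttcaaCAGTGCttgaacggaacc
Ftl1, 5′ UTR, chr7:45459778-45459807, minus strand: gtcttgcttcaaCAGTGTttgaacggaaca
Slc40a1, 5′ UTR, chr1:45925464-45925493, minus strand: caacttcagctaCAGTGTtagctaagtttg
Tfrc, 3′ UTR, chr16:32631219-32631248, plus strand: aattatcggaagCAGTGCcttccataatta
Tfrc, 3′ UTR, chr16:32631598-32631627, plus strand: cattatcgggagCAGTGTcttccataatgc
Tfrc, 3′ UTR, chr16:32631663-32631692, plus strand: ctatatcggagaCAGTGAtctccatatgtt
Tfrc, 3′ UTR, chr16:32631710-32631739, plus strand: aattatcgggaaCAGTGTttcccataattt

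Depth ran from 841974 to 886085 counts in the DJ-1+/+ and from 967751 to 1098125 in the DJ-1-/- libraries, so every DJ-1-/- library was deeper than every DJ-1+/+ library, and depth and genotype cannot be told apart. A level of 3 counts, under which no value was read as detected, was 2.73 to 3.56 cpm here, counting error alone considered. Park7, the targeted gene, had 105 to 132 counts in DJ-1+/+ and 14 to 29 counts in DJ-1-/- libraries, with a log2 fold change of −2.71 ± 0.15 (standard error, edgeR with Benjamini-Hochberg adjustment, adjusted p = 7.44e-08). Summed by list, neuronal, dopaminergic, glial and endothelial markers were detected in every library. Pitx3 of the dopaminergic list and Aqp1 of the choroid plexus list each averaged under 3 counts, and both are among the genes counted by direction below. Choroid plexus markers were highest in DJ-1+/+ replicates 4 and 1, at 1070 and 590.3 summed cpm against 272.8 to 428.0 in the other libraries. Cerebellar neuron markers summed to 1248 cpm in DJ-1+/+ replicate 1 and to 387.4 to 493.2 cpm elsewhere. Choroid plexus markers had a negative log2 fold change in 10 of 10 genes, cerebellar markers in 8 of 8, and dopaminergic neuron markers a positive one in 10 of 10. Of these, 6, 5 and 4 had an unadjusted p under 0.05 in edgeR, beside 2.82% of all genes tested. The summed cpm of each list overlapped between genotypes (exact two-sided permutation test, p = 0.318, 0.397 and 0.143). Dopaminergic sums were 476.3 to 931.9 cpm in DJ-1+/+ and 728.9 to 991.0 cpm in DJ-1-/- libraries, lowest in DJ-1+/+ replicates 4 and 3. The part of these cells in the results below was not tested beyond the fits without DJ-1+/+ replicates 1 and 4 and without each library in turn. Xist, the RNA of the inactive X chromosome, had 0 to 2 counts in 3 libraries (DJ-1+/+ replicates 1 and 4, with DJ-1-/- replicate 5). It had 146 to 193 counts in the other libraries. Ddx3y, a gene of the Y chromosome, had 121, 113 and 152 counts in those 3 libraries and 0 to 4 counts in the others. The sex of the mice is not given in the sources used here. By these genes those 3 mice were male and the others female, so sex was not balanced between the genotypes. In bulk tissue, fewer cells of a type and less RNA per cell cannot be told apart.

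None of the 9 iron handling genes differed between DJ-1-/- and DJ-1+/+ midbrain in the test across all genes, and the cpm ranges of the genotypes overlapped for all 9. Their adjusted p-values were all 0.9999 in edgeR with Benjamini-Hochberg adjustment, and their unadjusted p-values ran from 0.216 (Aco1) to 0.917 (Tfrc). Over all 18127 genes, 2.82% had an unadjusted p under 0.05, 0.00552% (Park7 alone) had an adjusted p under 0.05, and 1.25% had cpm that did not overlap between genotypes. Of the 9 genes, 5 had a positive and 4 a negative log2 fold change, with a median of 0.06 beside 0.01 over all genes tested. The intervals of the 9 genes differed in width. For Fth1 the 95% interval ran from 0.856-fold to 1.11-fold of the DJ-1+/+ level, for Ireb2 from 0.852-fold to 1.102-fold and for Tfrc from 0.846-fold to 1.16-fold. For Slc11a2 it ran from 0.905-fold to 1.26-fold, for Trf from 0.868-fold to 1.26-fold, for Aco1 from 0.670-fold to 1.103-fold and for Cp from 0.818-fold to 1.41-fold. It was widest for Slc40a1, from 0.801-fold to 1.73-fold, and Ftl1, from 0.592-fold to 1.83-fold.

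**Figure D1:**
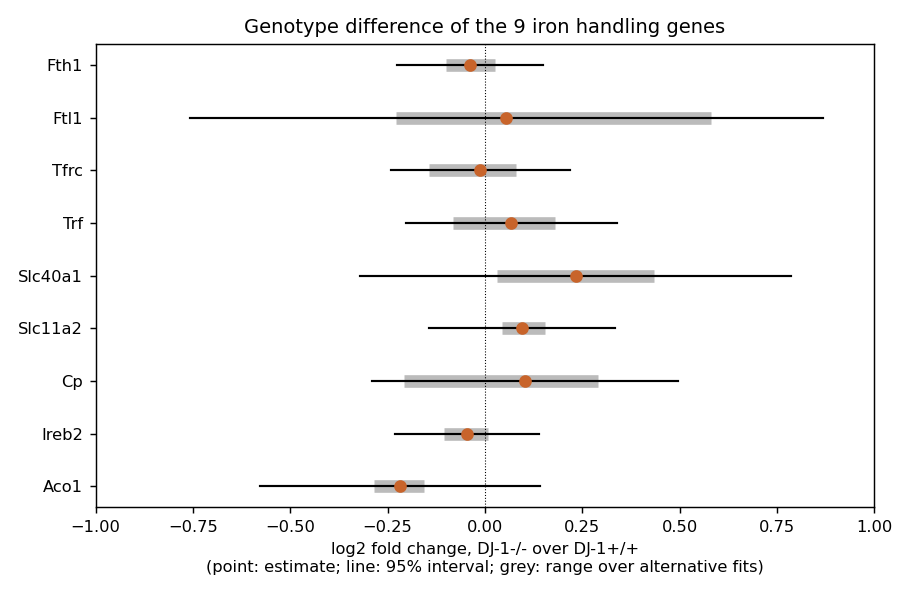
Log2 fold change of each iron handling gene, DJ-1-/- over DJ-1+/+ (x axis), with 1 gene per line (y axis). Points are edgeR estimates, lines their 95% intervals and grey bars the range over the alternative fits. All 9 lines cross 0, and the line of Ftl1 is the widest, from −0.76 to 0.87.

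By level, the ferritin heavy chain led the 9 genes and the iron exporter was last. Over all 9 mice Fth1 averaged 415.1 ± 42.9 cpm (SD, n = 9), with only 20 of the genes tested above it, and Trf averaged 256.3 ± 42.4 cpm. Fth1 was above Trf in every mouse and their ranges did not overlap. Tfrc (123.9 ± 15.4 cpm) and Ireb2 (104.2 ± 7.43 cpm) followed with overlapping ranges, although Tfrc was the higher of the pair in 9 of 9 mice. Cp (70.3 ± 16.2 cpm) and Slc11a2 (68.6 ± 5.88 cpm) were not separated, since Cp was the higher in 5 of 9 mice. Aco1 (32.4 ± 4.29 cpm), Ftl1 (25.5 ± 11 cpm) and Slc40a1 (20.3 ± 5.56 cpm) had the lowest counts, and in this set each gene was above the next in 6 of 9 mice and the ranges overlapped. The places of Ftl1 and Trf are those of their counts, since both share sequence near their 3′ ends with other genes (75.5% and 19.1% of windows, described with each gene). The places of Slc11a2 and Cp depend on the use of strand in the counting, since each overlaps a gene on the other strand.

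**Figure D2:**
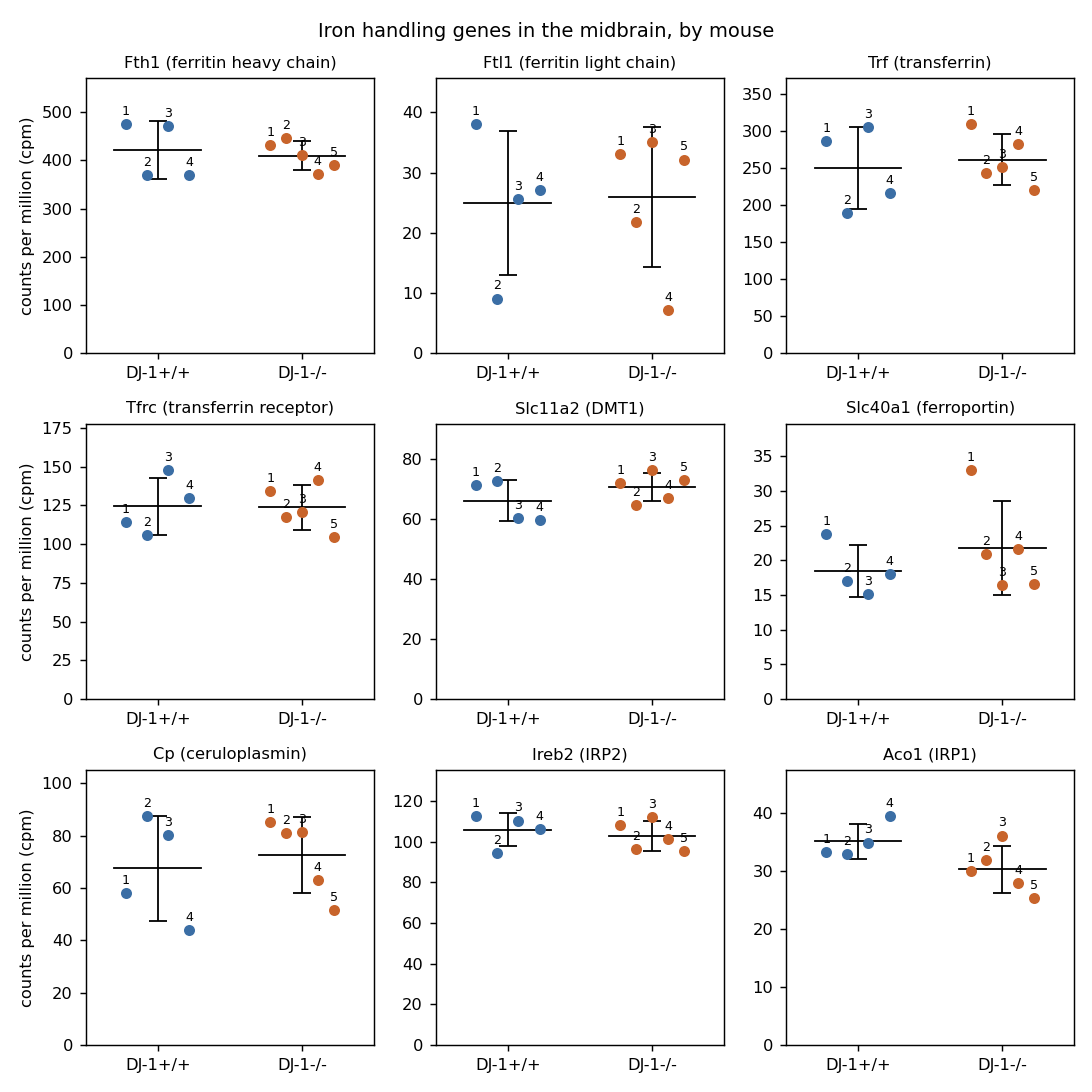
Level of each iron handling gene in cpm (y axis, from 0) in the midbrain of 4 DJ-1+/+ and 5 DJ-1-/- mice (x axis). Each point is 1 mouse, numbered by its replicate, and the bars are the mean and SD of each genotype. The genotypes overlap in all 9 panels, and Ftl1 is lowest in 1 mouse of each genotype, at 9.09 and 7.23 cpm.

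Transferrin and its receptor are the uptake pair. Trf (GRCm38 chr9:103204001-103230444, minus strand) was at 286.2, 189.8, 306.0 and 216.7 cpm in DJ-1+/+ replicates 1 to 4 and at 309.3, 244.1, 251.7, 283.1 and 220.2 cpm in DJ-1-/- replicates 1 to 5. The lowest and the second highest mouse were both DJ-1+/+, so that the DJ-1-/- values lay largely inside the DJ-1+/+ range. The DJ-1+/+ mean was 249.7 ± 55.3 cpm (SD, n = 4), and that of DJ-1-/- mice was 261.7 ± 34.8 cpm (SD, n = 5), a log2 fold change of 0.07 ± 0.13 (standard error). Gm20425, an annotated gene on the same strand, overlaps Trf and shares 19.1% of the 50-base windows of its last 400 bases, so reads there could have been set aside or split in the counting. Tfrc (chr16:32608920-32632794, plus strand) was at 114.0, 105.7, 147.8 and 129.8 cpm in the DJ-1+/+ libraries and at 134.1, 117.5, 120.7, 141.6 and 104.3 cpm in DJ-1-/- mice. The highest Tfrc level was in DJ-1+/+ replicate 3 and the lowest in DJ-1-/- replicate 5, with means of 124.3 ± 18.6 and 123.6 ± 14.6 cpm. The mRNA with the 4 hairpins of the 3′ UTR thus had a log2 fold change of −0.01, with a 95% interval from −0.24 to 0.22.

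The endosomal transporter Slc11a2 (chr15:100387898-100425072, minus strand) varied little from mouse to mouse. It was at 71.3, 72.7, 60.5 and 59.8 cpm in the DJ-1+/+ libraries and at 72.1, 64.7, 76.3, 67.2 and 73.1 cpm in DJ-1-/- mice. Its scatter did not exceed that of counting: the chi-square statistic of its counts against the library totals was 0.450 per degree of freedom, where 1 is counting error alone and the median over all genes tested was 1.12. DJ-1+/+ replicates 3 and 4 were the lowest of the 9 mice, and the means were 66.1 ± 6.87 and 70.7 ± 4.70 cpm (exact two-sided permutation test, p = 0.254). Slc11a2 overlaps Gm5475 on the other strand, and the use of strand in the counting is not given in the sources used here.

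The ferritin heavy chain had many more counts than the light chain, whose count is uncertain for the reason given with Ftl1. Fth1 (chr19:9980598-9985098, plus strand), the chain with ferroxidase activity, was at 475.1, 370.5, 471.2 and 369.0 cpm in the DJ-1+/+ libraries and at 431.4, 446.2, 411.6, 371.0 and 389.8 cpm in DJ-1-/- mice. The DJ-1+/+ mice held both the 2 highest and the 2 lowest values, and every DJ-1-/- mouse lay between them. The means were 421.4 ± 59.7 and 410.0 ± 30.4 cpm, with a log2 fold change of −0.04 ± 0.09. Fth1 counts scattered more than counting allows, at 4.47 per degree of freedom, above the 4.13 that marks the highest 5% of all genes tested. Trf was higher still, at 7.26. At the same relative spread this statistic grows with the count, and Fth1 and Trf had the highest levels of the 9 genes. Their coefficients of variation over the 9 mice were 10.3% and 16.5%.

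Ftl1 (chr7:45457944-45459884, minus strand), the chain that aids the laying down of the iron core, had 32, 8, 22 and 24 counts in DJ-1+/+ and 33, 24, 34, 7 and 33 counts in DJ-1-/- mice. One mouse of each genotype stood far below the rest. DJ-1+/+ replicate 2 was at 9.09 cpm, DJ-1-/- replicate 4 was at 7.23 cpm, and the other 7 lay between 21.9 and 38.0 cpm. The means were 24.9 ± 11.9 and 25.9 ± 11.6 cpm, and the scatter of 5.04 per degree of freedom was exceeded by 3.59% of all genes tested. The log2 fold change was 0.06 ± 0.38 over all 9 mice, 0.0021 without those 2 mice, −0.23 without DJ-1+/+ replicate 2 alone and 0.28 without DJ-1-/- replicate 4 alone. It was 0.58 without DJ-1+/+ replicates 1 and 4 and 0.35 with the Xist level in the fit, and no unadjusted p was under 0.05 in edgeR in any of these fits. The Ftl1 count is uncertain, because 75.5% of the 50-base windows in the last 400 bases of its transcript also occur, base for base, in other annotated genes, of which Ftl1-ps1 shared the most. Reads that match several genes are often not counted, and how the authors treated them is not given in the sources used here. The corresponding share was 13.7% in Fth1, all of it with the pseudogene Gm6977, and 0 in Tfrc, Slc40a1, Slc11a2, Cp, Ireb2 and Aco1.

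Copies of the ferritin genes took few counts. Ftl1-ps1 on chromosome 13 had 5, 2, 3 and 7 counts in DJ-1+/+ and 8, 4, 9, 4 and 8 counts in DJ-1-/- mice, Ftl1-ps2 had 2 counts and Gm15590 had 1 count in all. Fth-ps3 had 1 count in all, and Gm6977 had 17. Summed over Ftl1, Ftl1-ps1, Ftl1-ps2 and Gm15590, the DJ-1+/+ mice averaged 30.7 ± 14.7 cpm and the DJ-1-/- mice 32.4 ± 13.8 cpm (exact two-sided permutation test, p = 0.857), a sum chosen after the Ftl1 values were seen. The low values stayed low in it, at 11.4 cpm in both mice. This follows largely from Ftl1 itself, which gave 8 of the 10 counts in DJ-1+/+ replicate 2 and 7 of the 11 in DJ-1-/- replicate 4. The ratio of Fth1 to Ftl1 counts within a library does not depend on its depth. It was 12.5, 40.8, 18.4 and 13.6 in DJ-1+/+ and 13.1, 20.4, 11.7, 51.3 and 12.1 in DJ-1-/- mice. The 2 highest ratios were those of DJ-1+/+ replicate 2 and DJ-1-/- replicate 4, and they rest on the same low Ftl1 counts.

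Other genes were low in the same mice. Of the 10928 genes with a mean of at least 20 cpm, 93 had a Pearson r of at least 0.9 with Ftl1 over the 9 libraries (log2 of cpm + 1), more than with any other of the 9 iron genes (1 to 27). The 3 genes most alike were Pfn1 (r = 0.983), which encodes the actin-binding protein profilin 1, Syvn1 (0.980), a ubiquitin ligase of the endoplasmic reticulum, and Zdhhc17 (0.974), a palmitoyltransferase. Pfn1 had 47, 7, 43 and 37 counts in DJ-1+/+ and 50, 26, 50, 6 and 46 counts in DJ-1-/- mice, with the same mice lowest as for Ftl1. Over the 10928 genes, these mice were the 2 lowest of the 9 for 7.23% of genes and the 2 highest for 5.33%. The same shares were not computed for other pairs of mice, so whether they are unusual was not tested. Genes picked out after their values were seen as lowest in the same mice were Ttr (28.4 and 32.0 cpm), the ribosomal protein gene Rps6 (13.6 and 8.27 cpm), the mitochondrial gene mt-Atp6 (1.14 and 2.07 cpm) and, of the wider iron pathway, the lipid peroxide reductase Gpx4 (42.1 and 49.6 cpm). The mt-Atp6 values are 1 and 2 counts, under the level of 3 counts read as detected, and DJ-1+/+ replicate 1 had 3 counts. Pfn1, Syvn1 and Zdhhc17 were chosen by likeness to Ftl1, and the other named genes after their values were seen. Their low levels in these mice therefore follow from the choice. The shares over the 10928 genes, which were not picked, include genes lowest and genes highest in these 2 libraries. RNA quality and fragment length of these libraries are not given in the sources used here, and whether or why they differ from the other libraries was not tested.

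**Figure D3:**
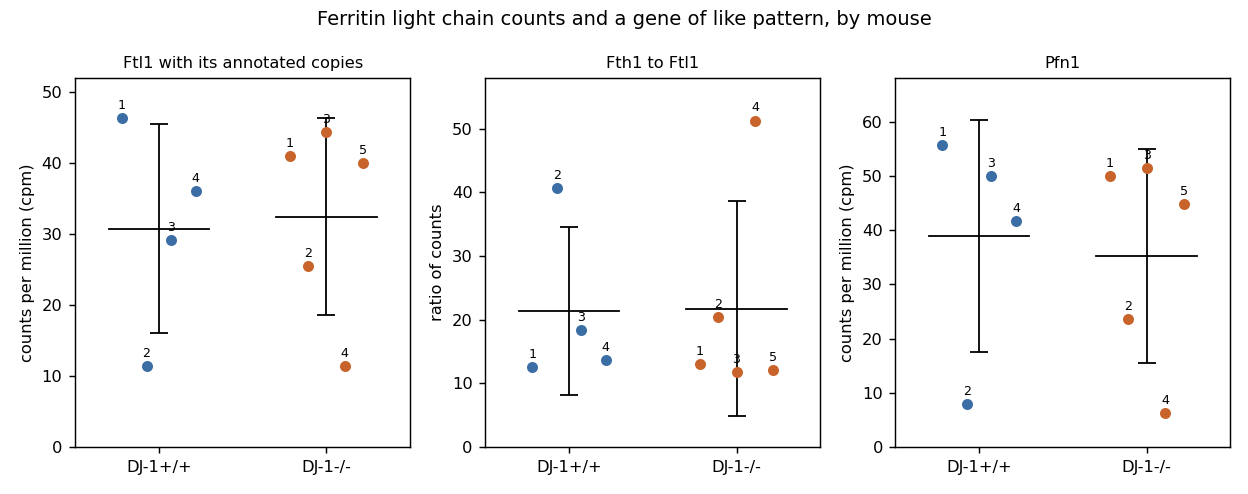
Level in cpm of Ftl1 summed with its annotated copies (left), the ratio of Fth1 to Ftl1 counts (middle) and the level of Pfn1 in cpm (right) in 4 DJ-1+/+ and 5 DJ-1-/- mice (x axis). Points are mice numbered by replicate, and bars are the mean and SD. DJ-1+/+ replicate 2 and DJ-1-/- replicate 4 are lowest on the left and right and highest in the middle, at ratios of 40.8 and 51.3.

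The genes of iron export are those of ferroportin and ceruloplasmin, and only their mRNA was measured, not export itself. Slc40a1 (chr1:45908068-45926523, minus strand) had 20, 15, 13 and 16 counts in DJ-1+/+ and 33, 23, 16, 21 and 17 counts in DJ-1-/- mice, that is 23.8, 17.1, 15.1 and 18.1 cpm against 33.0, 20.9, 16.5, 21.7 and 16.6 cpm. DJ-1-/- replicate 1 was the highest, and the lowest was DJ-1+/+ replicate 3. The log2 fold change of 0.23 ± 0.26 was the largest positive one of the 9 genes and rested on that 1 mouse, since without it the value was 0.03. The ratio of Tfrc to Slc40a1 counts, an uptake gene to an export gene, was 6.99 ± 2.10 in DJ-1+/+ and 5.96 ± 1.22 in DJ-1-/- mice, with overlapping ranges.

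Cp (chr3:19957054-20009145, plus strand) was at 58.2, 87.5, 80.3 and 44.0 cpm in the DJ-1+/+ libraries and at 85.1, 81.1, 81.5, 63.0 and 51.7 cpm in DJ-1-/- mice. Its values fell into a set of 5 mice between 80.3 and 87.5 cpm and a set of 4 between 44.0 and 63.0 cpm, with both genotypes in each. The means were 67.5 ± 20.01 and 72.5 ± 14.5 cpm (log2 fold change 0.10 ± 0.19). Cp lay lowest in the 3 mice with at most 2 counts of Xist, male by Xist and Ddx3y. These were DJ-1+/+ replicates 1 (58.2 cpm) and 4 (44.0 cpm) with DJ-1-/- replicate 5 (51.7 cpm). Among the mice with Xist, Cp was at 87.5 and 80.3 cpm in the DJ-1+/+ libraries and at 85.1, 81.1, 81.5 and 63.0 cpm in DJ-1-/- mice. This split was made after the Cp values were seen and was not tested. In a fit that took the Xist level into account, the log2 fold change of Cp was −0.08, and without DJ-1+/+ replicates 1 and 4, the libraries with most choroid plexus RNA, it was −0.21. The gene overlaps Hps3 on the other strand, and the use of strand in the counting is not given in the sources used here.

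The iron regulatory proteins were both detected in every mouse. Ireb2 (chr9:54863789-54912530, plus strand) was the steadiest of the 9 genes, with a coefficient of variation of 7.13% and levels of 112.8, 94.3, 110.5 and 106.1 cpm in the DJ-1+/+ libraries and 108.1, 96.5, 112.4, 101.3 and 95.5 cpm in DJ-1-/- mice. The genotypes spanned nearly the same range. Aco1 (chr4:40143081-40198338, plus strand), which encodes cytosolic aconitase and IRP1, was at 33.3, 33.0, 34.9 and 39.5 cpm in the DJ-1+/+ libraries and at 30.03, 31.9, 36.1, 27.9 and 25.3 cpm in DJ-1-/- mice. DJ-1-/- mice held the 4 lowest values, and DJ-1-/- replicate 3 had the second highest, so the ranges overlapped. The means were 35.2 ± 3.02 and 30.3 ± 4.08 cpm (exact two-sided permutation test, p = 0.0952), and the log2 fold change of −0.22 ± 0.17 was the largest negative one of the 9 genes, with a 95% interval from −0.58 to 0.14. Its scatter of 0.411 per degree of freedom was below the median of 1.12 over all genes, and its counts of 26 to 35 limit what can be seen. Without DJ-1-/- replicate 3 the exact two-sided permutation p was 0.0286, while edgeR's unadjusted p was 0.133. The ratio of Ireb2 to Aco1 counts was 3.39, 2.86, 3.17 and 2.69 in DJ-1+/+ and 3.60, 3.03, 3.11, 3.63 and 3.77 in DJ-1-/- mice, and these overlapped as well.

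In relations that did not pass adjustment, Trf and Fth1 varied from mouse to mouse with the oligodendrocyte markers. Summed over 10 markers, which include the myelin genes Mbp and Mobp, these spanned 2280 to 3016 cpm over the DJ-1+/+ and 2525 to 2868 cpm over the DJ-1-/- libraries, with 4 of 10 markers higher and 6 lower in DJ-1-/- and none with an unadjusted p under 0.05. For Trf, Pearson's r with this sum was 0.843 (exact permutation p = 0.00453, adjusted p = 0.204) and Spearman's rho was 0.683 (exact permutation p = 0.0503, adjusted p = 0.489) over 9 mice. For Fth1, r was 0.809 (exact permutation p = 0.00786, adjusted p = 0.222) and rho was 0.75 (exact permutation p = 0.0255, adjusted p = 0.489) over 9 mice. Without the 2 mice farthest from the median of the marker sum, DJ-1+/+ replicates 2 and 3, r was 0.644 for Trf and 0.735 for Fth1, and within genotypes it was 0.883 and 0.807. The adjusted values cover the 90 relations of 9 genes with 10 marker lists, of which 11 had an unadjusted exact p under 0.05 for r and none passed after adjustment. Trf was also related to the neuronal (r = 0.790), brain endothelium (r = 0.736) and astrocyte (r = 0.715) lists, and Fth1 to the astrocyte list (r = 0.779). For each of these genes rho with the astrocyte list was 0.783, above that with the oligodendrocyte list. The relation was therefore not shown to belong to a single cell type. Also among the 11 were Tfrc with the neuronal (r = 0.751) and brain endothelium (r = 0.706) lists and Slc40a1 with the astrocyte list (r = 0.699). Without the 2 mice farthest from the median of each marker sum, these were 0.380, 0.381 and 0.353.

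Cp was set beside the meningeal fibroblast markers, of which Igf2 had no count and the other 6 were tested between genotypes, none with an unadjusted p under 0.05. The 5 mice with Cp of 80.3 cpm or more had meningeal sums of 323.3 to 370.0 cpm, and the 4 with lower Cp had sums of 221.2 to 287.4 cpm. This split was made after the Cp values were seen, and the relation did not pass adjustment over the 90 relations (exact permutation, adjusted p = 0.204 for Pearson's r and adjusted p = 0.489 for Spearman's rho). Since the mice fell into separate sets, no pooled coefficient is given, and each set was too small for one of its own. Cp was lower where choroid plexus markers were higher (exact permutation p = 0.0163 and adjusted p = 0.239 for r, exact permutation p = 0.076 and adjusted p = 0.489 for rho), and this rested on DJ-1+/+ replicates 1 and 4, without which r was −0.246. For Ftl1, Aco1, Ireb2 and Slc11a2 no marker list had an unadjusted exact p under 0.05.

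**Figure D4:**
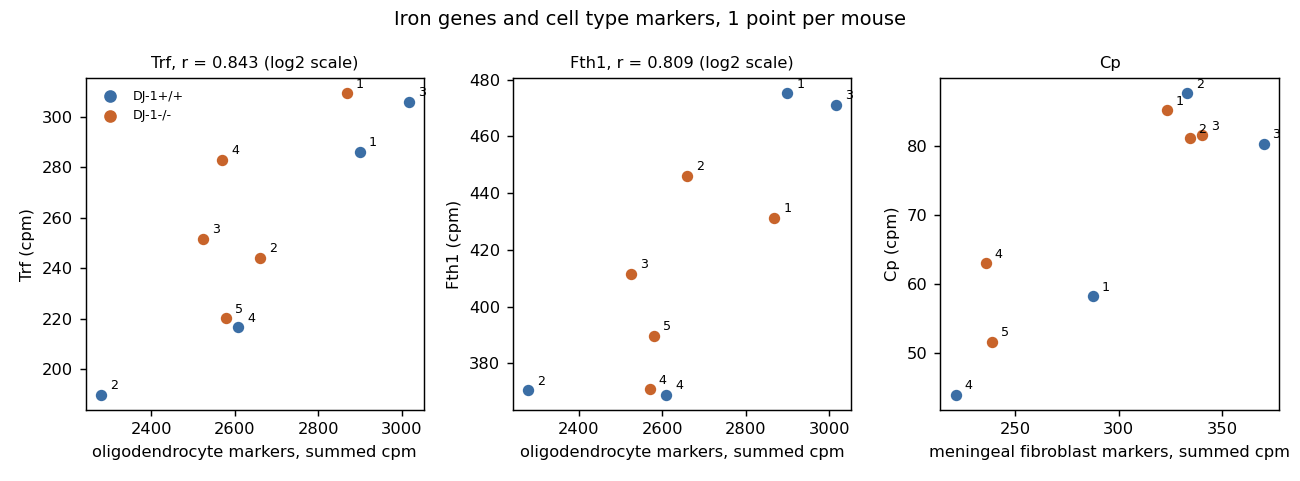
Trf and Fth1 against the summed oligodendrocyte markers, and Cp against the summed meningeal fibroblast markers (both axes in cpm, not starting at 0). Each point is 1 mouse, numbered by replicate and coloured by genotype. DJ-1+/+ replicate 2, with the lowest oligodendrocyte sum (2280 cpm), is lowest for Trf and within 2 cpm of the lowest for Fth1, and Cp shows 5 mice from 80.3 cpm apart from 4 up to 63.0 cpm.

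The genes most alike in pattern over the 9 mice differed from member to member. For Fth1 they were Abi1 (r = 0.967), Gng11 (0.938) and the thiamine transporter Slc19a2 (0.934), and for Trf they were Hhatl (0.965), Irx2 (0.960) and Hapln2 (0.960), which encodes a matrix link protein of myelinated nodes. For Cp they were Prg4 (0.961), Cntnap4 (0.945) and the fibronectin gene Fn1 (0.940). Tfrc was most like Zdhhc3 (0.929), B3gat3 (0.918) and Gspt1 (0.905), and Slc11a2 most like the proteasome gene Psmb1 (0.921), Gpr89 (0.884) and the heme exporter Flvcr1 (0.879). Slc40a1 was most like Ccz1 (0.935), the endothelial gene Plvap (0.909) and Ddb1 (0.905). Ireb2 was most like Sema6d (0.930), Dnajc24 (0.922) and AC122117.2 (0.921), and Aco1 most like Gm42418 (0.914), 2810002D19Rik (0.907) and Dnal4 (0.899). These are the highest of 10928 coefficients over 9 mice that share library and depth, and they are given as a description. Among the 36 pairs of the 9 genes themselves, the closest was Tfrc with Trf (r = 0.705, exact permutation p = 0.0379, adjusted p = 0.610), followed by Trf with Ireb2 (r = 0.669).

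The rest of the iron pathway was read from 72 other genes, of which 67 had a count and 63 were tested. Of these, 33 had a positive and 30 a negative log2 fold change, with a median of 0.01 beside 0.01 over all genes, and 0 passed the adjusted threshold in edgeR's test. One had an unadjusted p under 0.05 against a background of 2.82%, and 0 had cpm that did not overlap between genotypes. By role, 6 of 10 genes of uptake and the endosome, 1 of 5 of export, 3 of 4 of storage and its turnover, 10 of 15 of heme handling, 11 of 24 of mitochondrial iron and iron-sulfur assembly and 2 of 5 of ferroptosis had positive values. The group medians lay between −0.09 (export) and 0.08 (storage). The hormone hepcidin (Hamp) had 1 count in all 9 libraries, and mitochondrial ferritin (Ftmt) had none.

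The gene with an unadjusted p under 0.05 was Flvcr2, a membrane transporter of brain vessels listed here with the heme genes, which had 4, 2, 3 and 12 counts in DJ-1+/+ and 2, 1, 4, 2 and 2 counts in DJ-1-/- mice (log2 fold change −1.42 ± 0.61, unadjusted p = 0.0325, adjusted p = 0.9999 in edgeR). Its highest value was in DJ-1+/+ replicate 4, the library with 1070 summed cpm of choroid plexus markers, and the part of those cells in it was not tested. Of those with at least 5 cpm, the most negative included the metal importer Slc39a14 (−0.25), the mitochondrial iron importer Slc25a28 (−0.20) and Bmp6 (−0.17), the signal that induces hepcidin in liver. The most positive were the second transferrin receptor Tfr2 (0.76), the endosomal ferrireductase Steap3 (0.52), the ferritin autophagy receptor Ncoa4 (0.44) and Ppox (0.40), an enzyme of heme synthesis. Tfr2 had 1, 4, 3 and 6 counts in DJ-1+/+ and 5, 10, 8, 7 and 5 counts in DJ-1-/- mice, and Ncoa4 had 2, 13, 14 and 11 against 18, 11, 17, 19 and 14 counts. DJ-1+/+ replicate 1 was lowest for both. Steap1, named after its values were seen as the lowest point of the list (−1.95), had 19 of its 27 counts in DJ-1+/+ replicate 4.

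**Figure D5:**
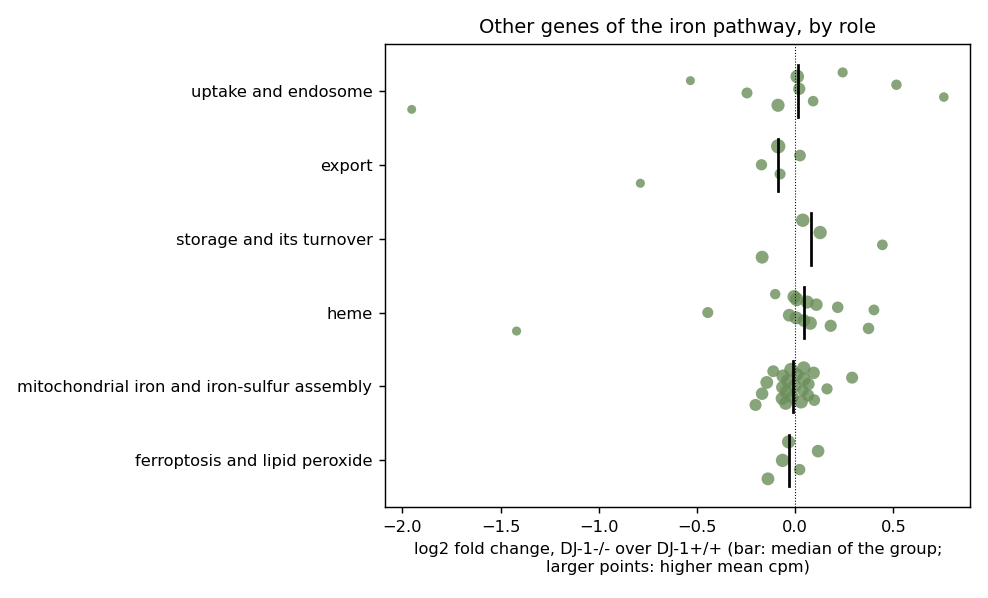
Log2 fold change, DJ-1-/- over DJ-1+/+ (x axis), of the 63 tested genes of the wider iron pathway by role (y axis). Each point is 1 gene, larger where its mean level is higher, and the vertical bars are group medians, which lie between −0.09 and 0.08. The points farthest from 0 are small, among them Steap1 at −1.95 and Flvcr2 at −1.42.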

How the data were processed

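The authors deposited, for each mouse, whole-number UMI counts per Ensembl gene without normalization, listing only genes with a count. Unlisted genes were taken as 0. The submitters' processing notes name fastp 0.20.0, STAR 2.7.3a, Subread featureCounts 2.0.0, UMI-tools 1.0.0 and GRCm38. The annotation and the strand setting are not given in the sources used here. Symbols and positions are those of GENCODE M21, which held 26576 of the 26602 genes.

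Genes with at least 10 counts over 9 libraries were tested with edgeR 4.0.16 (quasi-likelihood, TMM, genotype as the only term) in R 4.3.3, with Benjamini-Hochberg adjustment over 18127 genes. Intervals are 95%. The standard error is the log2 fold change divided by the square root of F. Single cpm values were compared by exact two-sided permutation over 126 assignments (smallest possible p = 0.0159) and correlations over 362880 pairings, on log2(cpm + 1), with scipy 1.17.1. The scripts were tested on simulated data. Over 16 pairs of libraries of 1 genotype, the chi-square per degree of freedom was 1.07 to 2.27, and none was treated as a copy.

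The genes and lists were chosen with earlier results of these data known. Named genes are the 9, Park7, ferritin copies, the genes most alike (mean at least 20 cpm) and, of the wider list, those with an unadjusted p under 0.05 and the 4 highest and 4 lowest with a mean of at least 5 cpm, of which 1 is not reported here. Alternatives were other size factors, filters, DESeq2 1.42.0, thinned counts, an Xist covariate, a replicate block, and libraries left out.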

Additional observations from a re-analysis of the deposited data

Results flagged for a closer look

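Of 46 groups of 4 or 5 mice examined, 2 held a mouse far from the others, and about 2.3 would do so by chance. The ratio of Fth1 to Ftl1 counts was 51.3 in DJ-1-/- replicate 4 and 11.7 to 20.4 in the other DJ-1-/- mice. Cerebellar neuron markers summed to 1248 cpm in DJ-1+/+ replicate 1 and to 387.4 to 493.2 cpm in the other DJ-1+/+ mice.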

How the results depend on the processing

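Over 19 alternatives for each of the 9 genes (171 fits), 151 kept the sign of the log2 fold change, 20 turned it, and 0 reached an unadjusted p under 0.05 in edgeR or DESeq2, with a smallest p of 0.133 for Aco1. Slc11a2 (0.04 to 0.15) and Slc40a1 (0.03 to 0.44) stayed positive and Aco1 (−0.29 to −0.16) stayed negative in all of them, and the full ranges were −0.23 to 0.58 for Ftl1, −0.21 to 0.29 for Cp, −0.14 to 0.08 for Tfrc, −0.08 to 0.18 for Trf, −0.10 to 0.03 for Fth1 and −0.10 to 0.01 for Ireb2. The sign turned for Ftl1 (−0.051) and Tfrc (0.044) with the replicate block, for Cp with the Xist covariate (−0.084), for Tfrc with thinned counts (0.0068, and 1.31 cpm for the difference of means), for Cp (−0.21) and Ireb2 (0.0068) without DJ-1+/+ replicates 1 and 4, and for Trf (−0.082) without DJ-1+/+ replicate 2 and DJ-1-/- replicate 4, a pair chosen after the data were seen. With each mouse left out in turn, the log2 fold change ran from −0.0575 to 0.25 for Cp, from −0.10 to 0.025 for Fth1, from −0.23 to 0.33 for Ftl1, from −0.089 to 0.080 for Tfrc and from −0.0498 to 0.18 for Trf. The differences of mean cpm ran from −2.87 to 11.6 for Cp, from −28.9 to 6.43 for Fth1, from −4.36 to 5.59 for Ftl1, from −6.89 to 7.13 for Tfrc and from −7.95 to 30.8 for Trf. For Aco1 the exact permutation p was 0.0286 without DJ-1-/- replicate 3, which had its highest DJ-1-/- level. All these turns are within the intervals of the values. Of all genes, 511 had an unadjusted p under 0.05, against 802 with no filter on low counts, 338 with edgeR's own filter, 235 with DESeq2, and 338 to 732 with each mouse left out. The number with an adjusted p under 0.05 was 1, against 36 with no filter, 8 with the replicate block, and 1 to 2 with a mouse left out. In the wider iron list, 1 gene had an unadjusted p under 0.05, against 2 with no filter, 0 with edgeR's own filter, 0 with the Xist covariate, 2 without DJ-1+/+ replicates 1 and 4, 3 without DJ-1+/+ replicate 2 and DJ-1-/- replicate 4, and 0 to 4 with a mouse left out. The cause of these shifts was not tested, other than that fewer or more genes were tested under another filter. Replicate numbers come from the labels, and mice of the same number did not deviate together (correlations from −0.193 to 0.296 over 4 pairs, with 1 of 4 DJ-1+/+ mice closest to its own number), so the replicate block has no pairing behind it. With the block, 569 of all genes had an unadjusted p under 0.05. At 35 counts per library or fewer, as for Aco1, Ftl1 and Slc40a1, counting error limits what can be seen. The median of all genes moved by less than 0.1 under every scaling.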
